A study of Mus musculus with 29 samples.

Results

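The genes described here are those of the MHC class II pathway and their master regulator: H2-Aa, H2-Ab1, H2-Eb1, H2-DMa, H2-DMb1, H2-DMb2, H2-Oa, H2-Ob, Cd74 and Ciita, 10 of the 21938 protein-coding genes of the mouse. Every deposited region that overlapped a gene body extended by 20 kb on each side was taken, and a region within reach of several of these genes was listed once. This gave 458 distinct regions of the 1008691 in all 25 lists, in 4 merged windows. The genes were listed by function, with no threshold on a measured value. The windows also hold neighbouring genes (Dexi and Clec16a beside Ciita, Brd2 and the lincRNA CR974462.2 beside H2-DMa, H2-Eb2 beside H2-Eb1, Tcof1 beside Cd74). A region in a window is therefore not assigned to a gene by its place alone.

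On GRCm38 (GENCODE vM21) the genes lie on 3 chromosomes. Ciita (ENSMUSG00000022504.10) spans chr16:10480059-10528418 on the plus strand and Cd74 (ENSMUSG00000024610.15) spans chr18:60803848-60812652, also plus. The other 8 lie on chromosome 17 in 2 groups. In the first, H2-Oa (ENSMUSG00000024334.9) spans chr17:34092340-34095234, H2-DMa (ENSMUSG00000037649.10) chr17:34119541-34139101, H2-DMb2 (ENSMUSG00000037548.15) chr17:34143307-34151555 and H2-DMb1 (ENSMUSG00000079547.4) chr17:34153072-34160230. In the second, H2-Ob (ENSMUSG00000041538.16) spans chr17:34238903-34254414, H2-Ab1 (ENSMUSG00000073421.6) chr17:34257689-34269419, H2-Aa (ENSMUSG00000036594.15) chr17:34282744-34287823 and H2-Eb1 (ENSMUSG00000060586.11) chr17:34305867-34316674. H2-Aa is on the minus strand and the others are on the plus strand. Distances below are to the nearest start of a protein-coding transcript of the gene (its coding start).

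Chromatin was profiled by CUT&RUN, a method that sequences the DNA cut free around an antibody-bound chromatin protein. IRF8, a transcription factor of the myeloid lineage, was detected through GFP in females of a strain labelled IRF8-EGFP. The cells were sorted microglia, the resident macrophages of the brain, from postnatal day 9 (P9, 4 libraries) and day 14 (P14, 3 libraries) and from adults (3 libraries), and peritoneal macrophages (3 libraries). For PU.1, an ETS factor of macrophages, and for each of H3K27ac and H3K4me1, 2 libraries came from wild-type (WT) adults and 2 from animals labelled IRF8KO (KO), all of microglia; the age of 3 months is given in a protocol text common to all samples, P9, P14 and peritoneal included, and was taken for the adult microglia only. The peritoneal libraries carry a source label naming microglia, and their titles were followed; the labels do not say whether libraries came from separate animals. Each stage and tissue had its own IgG control, so stage cannot be told apart from control.

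MHC class II molecules are pairs of an alpha and a beta chain that present peptides from the endosome to CD4 T cells. Their genes are switched on together by CIITA, which does not bind DNA itself but is recruited to a proximal promoter where RFX and CREB factors bind the X box and NF-Y binds the Y box. Ciita has several promoters that are used in different cell types, and interferon gamma induces it. Microglia at rest are known for low class II, which rises on activation. IRF8 binds weakly alone and usually pairs with PU.1 on composite ETS-IRF motifs or with other IRFs on interferon response motifs.

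The sequences below belong to the elements and promoters on which the results turn. The opening 3 are windows of 201 bp centred on the strongest adult IRF8 summit of an element (GRCm38, plus strand): the element in CR974462.2 between H2-Oa and H2-DMa (chr17:34101714-34101914), the element in an intron of H2-Eb2 (chr17:34335073-34335273), and the element just before the start of H2-DMb2 (chr17:34142724-34142924). The other 4 are the 150 bases before the RefSeq start of H2-Eb1 (chr17:34305717-34305866), H2-Aa (minus strand, chr17:34287824-34287973), H2-Ob (chr17:34238755-34238904) and H2-DMb2 (chr17:34145099-34145248), shown because these starts carry or lack regions described further on. Capitals mark letters that matched a searched motif.
CR974462.2 element: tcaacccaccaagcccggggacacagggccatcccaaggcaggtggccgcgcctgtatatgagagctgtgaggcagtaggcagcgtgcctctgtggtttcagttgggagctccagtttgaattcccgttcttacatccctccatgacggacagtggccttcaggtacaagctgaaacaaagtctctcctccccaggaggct
H2-Eb2 element: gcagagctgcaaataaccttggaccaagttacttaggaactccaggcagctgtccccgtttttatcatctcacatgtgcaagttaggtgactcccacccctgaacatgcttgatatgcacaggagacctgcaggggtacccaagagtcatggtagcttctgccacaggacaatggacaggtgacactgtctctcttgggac
H2-DMb2 element: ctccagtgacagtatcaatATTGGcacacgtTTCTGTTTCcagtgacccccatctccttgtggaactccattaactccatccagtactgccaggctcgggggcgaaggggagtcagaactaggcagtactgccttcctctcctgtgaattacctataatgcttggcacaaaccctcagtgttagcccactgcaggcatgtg
H2-Eb1 promoter: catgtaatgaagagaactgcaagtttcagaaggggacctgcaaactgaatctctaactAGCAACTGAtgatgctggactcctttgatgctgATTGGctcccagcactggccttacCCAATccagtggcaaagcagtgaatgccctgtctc
H2-Aa promoter: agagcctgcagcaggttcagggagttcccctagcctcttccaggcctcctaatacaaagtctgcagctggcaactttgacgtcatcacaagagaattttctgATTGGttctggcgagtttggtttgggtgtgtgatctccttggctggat
H2-Ob promoter: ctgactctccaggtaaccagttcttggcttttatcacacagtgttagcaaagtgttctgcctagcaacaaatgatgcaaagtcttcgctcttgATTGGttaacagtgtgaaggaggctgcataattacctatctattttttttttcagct
H2-DMb2 promoter: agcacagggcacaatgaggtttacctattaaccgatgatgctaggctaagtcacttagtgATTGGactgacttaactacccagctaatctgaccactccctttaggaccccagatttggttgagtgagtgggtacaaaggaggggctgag

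Promoter sequences came from RefSeq (GRCm38.p6), where 7 of the 10 genes had 8 entries of 300 bases; H2-Ab1, Cd74 and Ciita had none. Letters were searched on both strands. CCAAT, the core of the Y box, was found in 7 of the 8 entries, against 37.4% of all 32851 promoters. In H2-Aa it lay 48 to 44 bases before the start, in H2-Ob 57 to 53, in H2-DMb1 61 to 57, in H2-Oa 43 to 39, in H2-DMb2 90 to 86 and in 1 of the 2 H2-DMa entries, farther out, 198 to 194; H2-Eb1 held it at 59 to 55 and again at 35 to 31 bases. AGCAACNGA, X box letters, were found only in H2-Eb1 (92 to 84 bases before the start), against 1.34% of all promoters. Variants of these letters were not searched, so the other promoters are not shown to lack an X box. GGAANNGAA, the composite ETS-IRF letters, and GAAANNGAA, the interferon response type, were in none of the 8, against 8.24% and 8.56%. Matches of these letter patterns can overlap each other. In the 201-bp windows of the 18 IRF8 elements with a region in at least 2 adult libraries, composite letters were in 1 window (the one 14.3 kb before Cd74), against 6.94% of 16934 such windows in the genome. Interferon response letters were in 2 (the same Cd74 element and the H2-DMb2 element, shown above), against 6.80%, CCAAT in 5, against 21.9%, and X box letters in none, against 0.957%. The windows of the CR974462.2 and H2-Eb2 elements, which had the highest -log10 p, held none of these letters.

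The IRF8 lists of P9 microglia held 1168 to 2068 regions, those of P14 microglia 7931 to 19243, those of adult microglia 17048 to 29667 and the peritoneal lists 9788 to 23163. Adult replicate 2 stood apart, with 24705885 fragments against 7510600 and 7250496 in the other adult libraries, and the remaining IRF8 libraries had 13379171 to 24365583; peritoneal replicate 3 had the fewest regions of its group. Of 6 microglial marker genes fixed for the check, an IRF8 region in at least 2 libraries lay near 4 in P9, 5 in P14 and 6 in adult microglia, and near 4 in the peritoneal libraries. Of 5 peritoneal macrophage markers, 5 did in peritoneal macrophages, with 3 to 16 regions per library, against 1 in adult and 1 in P14 microglia, with 1 to 2 regions, and 0 at P9. Dendritic and B cells express class II strongly: dendritic cell markers with such a region were 1 of 4 in P9 (1 to 4 regions per library), 3 in P14 (4 to 14), 4 in adult microglia (10 to 15) and 1 in peritoneal macrophages (3 to 5). B cell markers were 0, 2 and 3 of 4 over the stages (0 to 1, 1 to 4 and 3 to 9 regions) and 3 in peritoneal macrophages (3 to 5). For border macrophage markers the counts were 0, 2 and 3 of 4 (0 to 1, 4 to 8 and 6 to 10) and 4 (6 to 13), and for T cell markers 0, 1 and 1 of 3 (0, 1 and 2 to 4) and 0 (0 to 1). Regions near these marker lists were thus also more numerous in adults than at P9. A region near a marker is not its expression, and a part of other cells in the results was not tested.

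IRF8 regions at the class II genes were few at P9 and numerous in adults. At P9 the 4 libraries held 2, 1, 3 and 3 regions (2.25 ± 0.957, SD, n = 4), at P14 10, 19 and 8 (12.3 ± 5.86, n = 3) and in adults 16, 41 and 16 (24.3 ± 14.4, n = 3). Every P9 library was below every P14 library, while P14 and adult libraries overlapped. The lists as a whole grew in the same order. Per 10000 regions of the list, the values were 14.6, 8.56, 14.5 and 24.02 at P9, 12.6, 9.87 and 10.1 at P14 and 9.39, 13.8 and 7.14 in adults, with groups that overlapped. Peritoneal macrophages held 21, 15 and 4 regions (13.3 ± 8.62, n = 3), or 9.07, 8.83 and 4.09 per 10000. Within batch 1 the adult libraries had 16 and 41 against 21 and 15 in peritoneal macrophages, and within batch 2 16 against 4. Per 10000 regions the adult libraries had 9.39 and 13.8 against 9.07 and 8.83 in batch 1, and 7.14 against 4.09 in batch 2. The raw counts overlapped in batch 1, while on the scaled values the adult libraries were above the peritoneal ones within each batch; this difference was not tested.

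**Figure D1:**
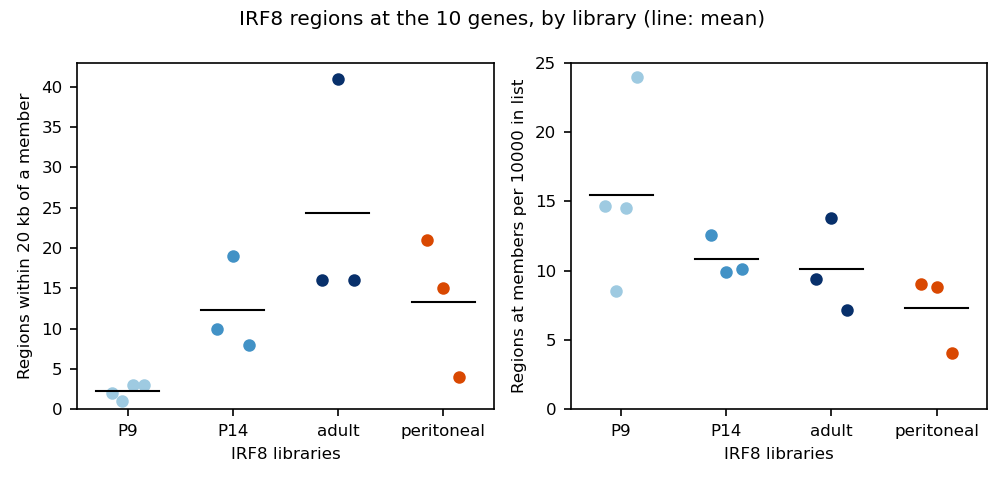
IRF8 regions within 20 kb of the 10 genes in each library (left, number of regions) and per 10000 regions of the library's list (right); points are libraries and lines are group means. The count is lowest at P9 (1 to 3), while per 10000 regions the P9 libraries lie between 8.56 and 24.02 and overlap the other groups.

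The number of IRF8 regions per gene was tested for an order over P9, P14 and adult with an exact two-sided permutation test of the Jonckheere-Terpstra statistic on 10 libraries, Benjamini-Hochberg adjusted over 16472 genes. Of the 10 genes, 7 passed at 0.05, all with more regions at later stages, against 46.0% of all genes tested (7582, every one with an increase). H2-DMb2, a beta chain of the peptide editor H2-DM, had 0 regions in all 4 P9 libraries, 2, 3 and 3 at P14 and 3, 7 and 3 in adults (exact permutation p = 0.00143, adjusted p = 0.0173). Ciita had 1 region in 1 P9 library and 0 in the other 3, then 1, 3 and 1, then 4, 11 and 3 (adjusted exact permutation p = 0.018). Cd74, the invariant chain that guides class II molecules to the endosome, had 1 region in 1 P9 library, then 1, 3 and 1, then 2, 5 and 3 (adjusted p = 0.0211, exact permutation test). H2-DMa, H2-DMb1, H2-Ab1 and H2-Ob also passed, with adjusted exact permutation p-values of 0.0237 to 0.0273. H2-Oa had an adjusted p of 0.0621, and H2-Aa and H2-Eb1 of 0.333. H2-Eb1, the beta chain of I-E, was the one gene with 1 region in every P9 library and in 2 of the 3 libraries of each later stage, where the remaining library held 2 at P14 and 5 in adults. With only regions of a -log10 p of at least 10, H2-Ab1, H2-Ob, H2-DMa and H2-DMb2 passed, in windows of 5 kb H2-Ob, H2-DMa and H2-DMb2, and by presence in place of number H2-DMb1 and H2-DMb2. Ciita and Cd74 missed the threshold under all 3 (adjusted exact permutation p of 0.302 and 0.134, of 0.124 and 0.102, and of 0.0998 for both). When all lists were limited to their 1168 strongest regions, no gene passed (147 at an unadjusted p under 0.05). Of the 5 class II genes that still had a region, Ciita, Cd74 and H2-Eb1 turned to fewer regions at later stages. For Ciita this was 1 region in P9 replicate 3 and for Cd74 1 region in P9 replicate 4, with none in other microglial lists. The H2-Eb1 region was missing from P14 replicate 3 only. Without P9 replicate 1 or 2 none of the 10 genes passed, without P9 replicate 3 only Ciita, without P9 replicate 4 only Cd74 and without adult replicate 2 only Ciita; the number of all genes called then lay between 1600 and 1920. Without adult replicate 1, H2-Ab1 and H2-Ob missed the threshold and H2-Oa passed, as H2-Oa also did without P14 replicate 1.

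An IRF8 region in at least 2 libraries of a group lay within 20 kb of 3 of the 10 genes in P9 microglia (7.00% of all genes), 9 in P14 microglia (32.0%), 9 in adult microglia (50.6%) and 10 in peritoneal macrophages (39.9%). Neighbours in the 2 class II clusters share windows, so these 10 are not independent. H2-Aa, the alpha chain of I-A, was the gene without one in P14 and adult microglia. The median number per gene (P9, P14, adult microglia) was 0, 1 and 3, and it was 2 in peritoneal macrophages, against medians of 0, 0, 1 and 0 over all genes.

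Merging the regions of the 13 IRF8 libraries gave 48 elements in the windows, of which 20 were seen in 1 library only, 13 of these in adult replicate 2. Counting elements with a region in at least 2 libraries of a group, P9 microglia had 2, P14 microglia 9, adult microglia 18 and peritoneal macrophages 12. Both P9 elements were among the adult 18, as were all 9 of P14. Merging the adult libraries alone gave 19 adult regions, of which 2 overlapped a P9 region of the same kind (10.5%, against 7.76% of all adult regions), 10 a P14 region (52.6%, against 43.2%) and 8 a peritoneal region (42.1%, against 39.5%). With a -log10 p of at least 10, 2 of 10 adult regions were shared with P14 and 2 of 10 with peritoneal macrophages. With a region in every library these were 5 of 10 and 2 of 10, and at equal list lengths 4 of 8 and 3 of 10. Shared with P9 were, in the order of these rules, 2 of 10, 1 of 10 and 2 of 2. Sharing with P14 was 6 of 19 when 0.5 of a region had to be covered. The adult count was 9 without adult replicate 2, and those shared with P14 then numbered 5 and with peritoneal macrophages 4. The number shared with peritoneal macrophages was 2 without peritoneal replicate 1 and 2 without replicate 2, and the number shared with P14 was 4 without P14 replicate 2 and 6 without adult replicate 1. Of the 18 adult elements, 6 lay within 1000 bp of a coding start of a class II gene or Ciita, 4 at the start of another gene and 8 elsewhere.

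**Figure D2:**
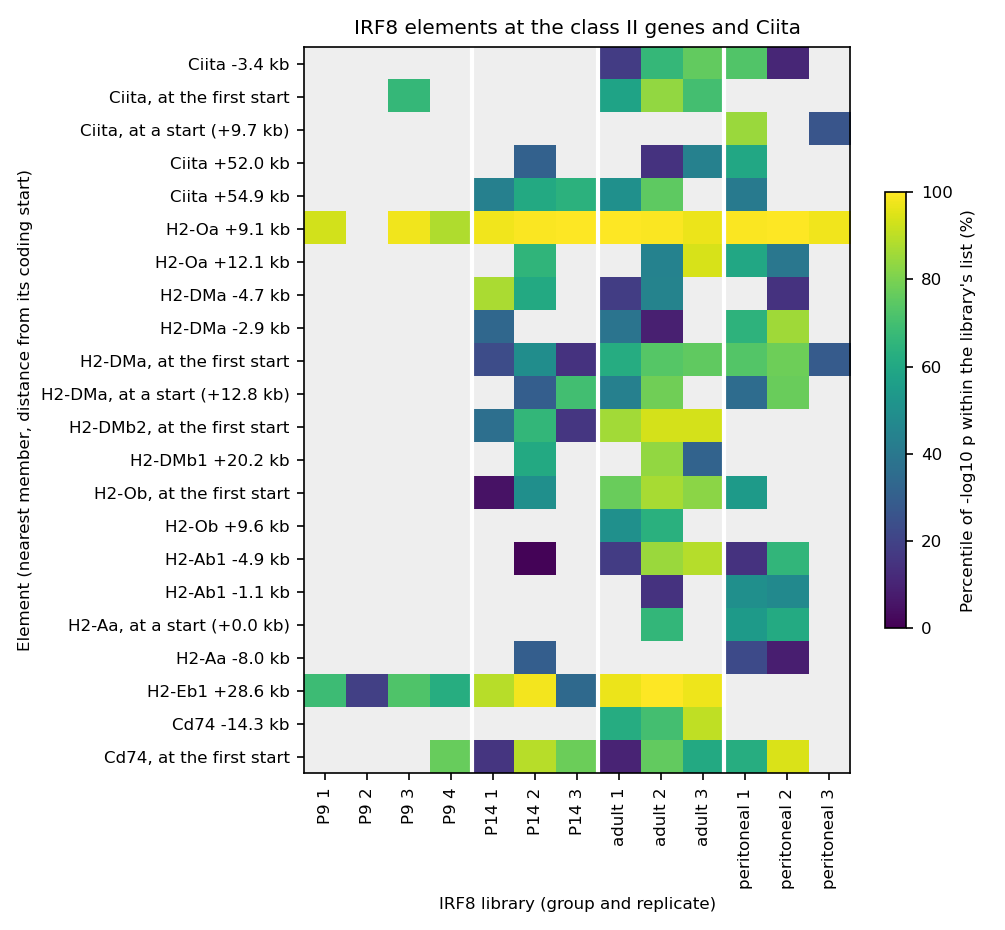
IRF8 elements with a region in at least 2 libraries of a group (rows, named by the nearest of the 10 genes and the distance from its coding start) in the 13 IRF8 libraries (columns); colour is the percentile of the authors' -log10 p among all regions of that library, and grey is no region. The rows at H2-Oa +9.1 kb and H2-Eb1 +28.6 kb are the 2 elements seen in at least 2 P9 libraries, and the second is grey in all 3 peritoneal libraries.

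One of the 2 elements seen in at least 2 P9 libraries lay in the lincRNA CR974462.2, 9.1 kb beyond the start of H2-Oa (chr17:34101422-34103929), and was present in 12 of 13 IRF8 libraries. Its fold enrichment over control, as the authors give it per peak, was 9.92, 12.4 and 7.50 in 3 P9 libraries, with no region in P9 replicate 2. It was 14.99, 22.8 and 20.5 at P14, 30.8, 20.1 and 10.5 in adults, and 23.4, 23.2 and 9.06 in peritoneal macrophages. By -log10 p it stood at the 88.0th to 97.9th percentile of its list at P9 and at the 97.0th or higher in every later library and in peritoneal macrophages. It was among the 1168 strongest regions in all 12 lists that held it. PU.1 was called there in both WT and both KO libraries (-log10 p of 48.1 and 34.3 in WT, 41.1 and 28.0 in KO), each at the 96.8th percentile of its list or higher. H3K27ac had -log10 p of 31.9 and 19.1 in WT, 5.52 in KO replicate 1 and no region in KO replicate 2.

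The other lay in H2-Eb2 (chr17:34334609-34336195), a further class II beta chain gene, and overlapped one of its exons, while the printed window held none. All 10 microglial IRF8 libraries held it and 0 of 3 peritoneal libraries did. Its fold enrichment was 6.25, 4.23, 6.35 and 5.63 at P9, 9.49, 16.1 and 3.26 at P14, and 18.1, 25.3 and 12.7 in adults. Its percentile within the list was 19.01 to 72.6 at P9, 34.2 to 98.1 at P14 and 96.9 to 99.7 in adults. At an equal list length of 1168 regions it remained in all 4 P9, 2 of 3 P14 and all 3 adult lists and in no peritoneal list. PU.1 was called in 1 WT library there, at the 1.37th percentile, and in neither KO library, and H3K4me1 in all 4. The adult and peritoneal calls differed in both batches.

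At Ciita, adult and peritoneal IRF8 regions shared an element before the first start and differed at 2 others. The element at the first start (chr16:10479533-10480626) was present in 3 of 3 adult libraries, with fold enrichments of 7.55, 9.33 and 6.28, in 1 of 4 P9 libraries (6.02), and in no P14 or peritoneal library. An element 3.4 kb before it (chr16:10475698-10476659) was present in 3 of 3 adult libraries (4.56, 5.80 and 6.27) and in 2 of 3 peritoneal libraries (5.09 and 2.71), and in no P9 or P14 library. Another element at a start within the gene (chr16:10488974-10490609) was present in 2 of 3 peritoneal libraries (7.56 and 3.88) and in no microglial IRF8 library. An IRF8 region between this element and the first start (chr16:10486796-10488220), 59 bp from a coding start of Ciita, was called in adult replicate 2 alone, with a fold enrichment of 6.599. This difference in place rests on presence calls in 3 libraries against 3 and was not tested. Elements 52.0 and 54.9 kb beyond the last coding start of Ciita lay at the starts of Dexi and Clec16a. No PU.1 region was common to both libraries of a genotype in the Ciita window. H3K27ac was found at the 3.4-kb element in both WT libraries and KO replicate 1 (-log10 p of 10.8, 15.7 and 18.4), and at the first start in WT replicate 2 only.

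**Figure D3:**
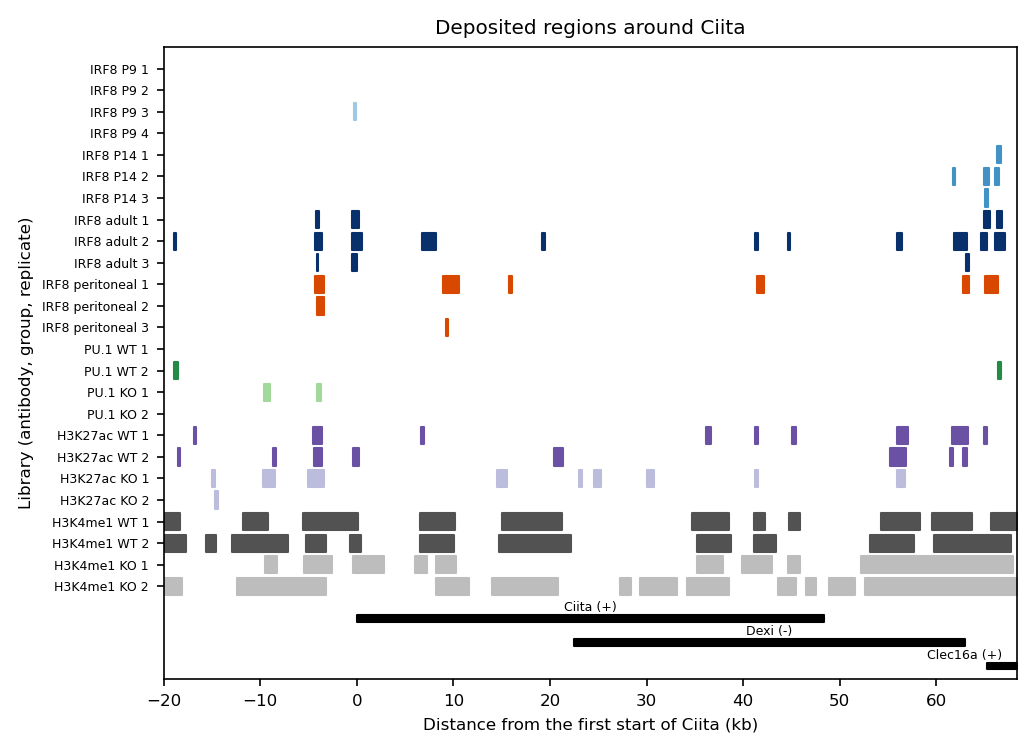
Deposited regions of all 25 libraries (bars, one line per library) around Ciita, by distance from its first start in kb, with gene bodies and strands below. The 3 adult IRF8 lines share bars just before 0 and at 0, while peritoneal lines 1 and 3 share one near +9 kb.

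Among the peptide editing genes, H2-DMb2 had an element at its first annotated start (chr17:34142474-34144063) in 3 of 3 P14 and 3 of 3 adult libraries and in no P9 or peritoneal library. Its fold enrichment was 5.32, 6.13 and 3.73 at P14 and 11.9, 13.7 and 9.97 in adults, with percentiles of 15.8 to 66.3 and 86.1 to 93.7. PU.1 was called there in both WT (-log10 p of 9.16 and 9.64) and both KO libraries (7.39 and 8.57). At H2-DMa, the alpha chain of the editor, an element over the Brd2 and H2-DMa starts (chr17:34120367-34125278) was present in all P14, adult and peritoneal libraries, and another at a later start of H2-DMa (chr17:34135490-34136244) in 2 libraries of each of the 3 groups. Other elements near H2-DMa, each in 2 adult libraries, lay 4.7 and 2.9 kb before its nearest coding start and overlapped exons of Brd2. The farther one was also in 2 P14 libraries and 1 peritoneal library. The nearer one was also in 1 P14 library and 2 peritoneal libraries, and overlapped an exon of H2-DMa too. In CR974462.2, 12.1 kb beyond the start of H2-Oa, an element (chr17:34104461-34105829) was present in 1 P14, 2 adult and 2 peritoneal libraries. An element 20.2 kb beyond the start of H2-DMb1 was present in 2 adult libraries and 1 P14 library.

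H2-Oa and H2-Ob encode H2-O, which inhibits H2-DM. The element at the start of H2-Ob (chr17:34238653-34240458) was present in 2 P14 libraries, 3 adult libraries and 1 peritoneal library, with fold enrichments of 4.00 and 5.32, then 9.86, 10.5 and 6.61, then 5.14. A second H2-Ob element 9.6 kb further was present in 2 adult libraries and in no other IRF8 library, with PU.1 in both WT and both KO libraries. At the start of H2-Oa IRF8 was called in adult replicate 2 alone, while PU.1 was called in all 4 WT and KO libraries.

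For the antigen-presenting chains, IRF8 was sparse at the coding starts. Near H2-Ab1, the beta chain of I-A, an element 4.9 kb before the coding start (chr17:34257056-34258323), at the first annotated base of the gene, was present in 1 P14 library, all 3 adult libraries and 2 peritoneal libraries. Its fold enrichment was 3.16 at P14, 4.28, 8.54 and 7.39 in adults and 3.37 and 4.89 in peritoneal macrophages. At the coding start of H2-Ab1 (chr17:34263126-34263439) IRF8 was called in P14 replicate 2 and adult replicate 2 only (5.78 and 3.34). At the start of H2-Aa (chr17:34286430-34287806) IRF8 was called in 2 peritoneal libraries (5.14 and 5.14) and in adult replicate 2 (6.599). At the start of H2-Eb1 it was called in adult replicate 2 and peritoneal replicate 2 only (5.62 and 4.28). An element 1.1 kb before H2-Ab1 and one 8.0 kb before H2-Aa were present in 2 peritoneal libraries, with 1 and 0 adult libraries. The one before H2-Aa was also called in P14 replicate 2 (4.34). Cd74 had an element over its start (chr18:60803554-60807907) in 1 P9 library, all 3 P14 and all 3 adult libraries and 2 peritoneal libraries, and one 14.3 kb before it (chr18:60788494-60789512) in 3 of 3 adult libraries (7.78, 7.09 and 8.79) and in no other IRF8 library.

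**Figure D4:**
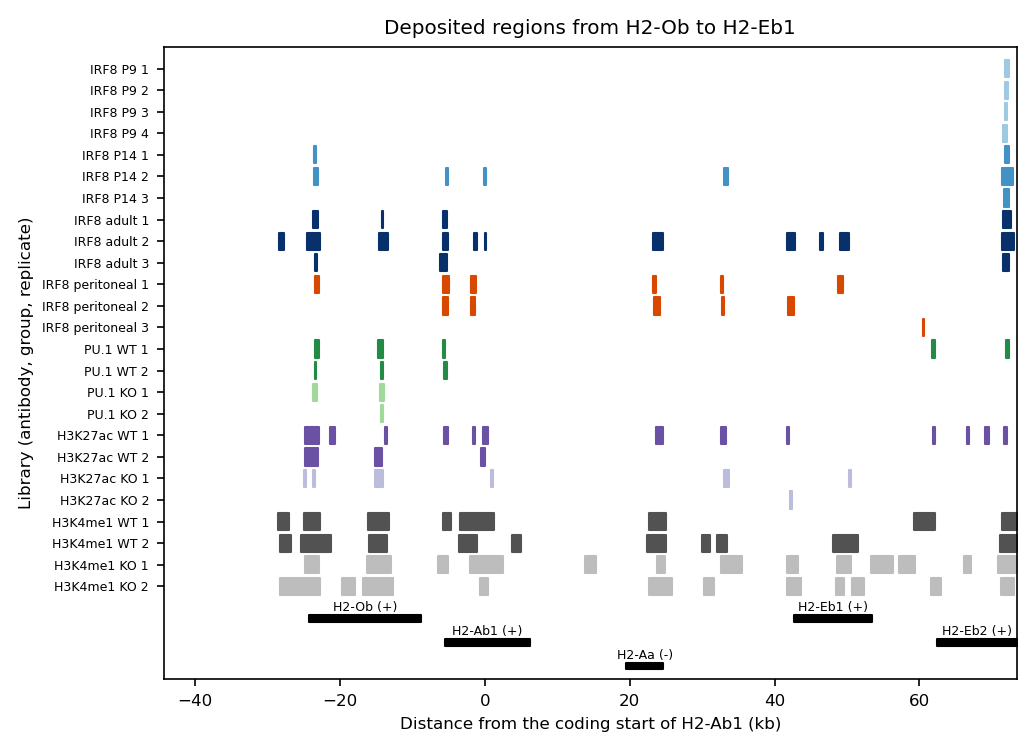
Deposited regions of all 25 libraries (bars, one line per library) from 20 kb before H2-Ob to 20 kb beyond H2-Eb1, by distance from the coding start of H2-Ab1 in kb. The bars at the right edge in every microglial IRF8 line are the H2-Eb2 element, and the 3 peritoneal lines have none there.

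Of the 18 adult IRF8 elements, 6 overlapped PU.1 in both WT libraries and 5 in both KO libraries, beside 27.8% and 21.4% of all 16928 such elements in the genome. H3K27ac was overlapped in both WT libraries by 10 and in both KO libraries by 2, beside 81.6% and 28.8%. For H3K4me1 the counts were 15 and 12, beside 89.0% and 82.2%. The KO numbers for H3K27ac include the shallow library described below.

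PU.1 was called at most of its shared WT regions in KO as well. The WT libraries held 12 and 11 PU.1 regions in the windows and the KO libraries 9 and 11. Of 7 regions common to both WT libraries, 1 had no region in either KO library, against 25.1% of 5358 such regions in the genome. It lay at the element 4.9 kb before H2-Ab1 (chr17:34257476-34257996), where all 3 adult libraries had IRF8, with -log10 p of 8.48 and 6.93 in WT. Its 2 values lay near the middle of their lists, at percentiles of 53.4 and 47.1. Another 2, at the H2-Ob start and in Cd74, had a region in 1 KO library, and the other 4, at H2-Oa, CR974462.2, H2-DMb2 and H2-Ob +9.6 kb, in both. Of 6 regions common to both KO libraries none was without a WT region, against 16.5% of 4584. A shared PU.1 region lay near 7 of the 10 genes in WT and in KO (22.4% and 20.9% of all genes), and near none of H2-Aa, H2-Eb1 and Ciita. PU.1 replicate 2 of each genotype was called by the authors at a looser q-value (0.05) than replicate 1 (0.01), and against another control. Adult IRF8 (at least 2 libraries) overlapped 6 of the 7 WT regions, beside 86.9% of all WT regions. With 1 library left out, the regions without a KO region were 3 (without WT replicate 1), 5 (without WT replicate 2) or 2 (without either KO library), and those in KO only 1 (without WT replicate 2), 3 and 2 (without KO replicates 1 and 2). Near the marker genes, 6 of 18 PU.1 regions of WT had none in KO for microglia, and 0 of 1, 0 of 3 and 0 of 1 for B cells, dendritic cells and border macrophages. In KO only were 1 of 3 for border macrophages, and 0 of 11, 0 of 1 and 0 of 3 for microglia, B cells and dendritic cells. The peritoneal macrophage and T cell genes had no shared PU.1 region in WT or KO, and the part of these lists in the PU.1 counts was not tested.

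H3K27ac is the mark of active promoters and enhancers. WT libraries held 38 and 30 regions in the windows and KO libraries 28 and 5. KO replicate 2 had 8572250 fragments and 31524 regions in its list, against 14670239 fragments and 88400 regions in KO replicate 1, and 26 of the 28 regions of KO replicate 1 were absent from replicate 2, as were 3 of the 5 of replicate 2 from replicate 1; the part of depth was not tested. The WT libraries also differed: 20 of 38 regions of replicate 1 were absent from replicate 2, and H2-Eb1 had 7 in replicate 1 and 0 in replicate 2. Of 17 regions common to both WT libraries, 7 (41.2%) had no region in either KO library, against 34.0% of 36697 in the genome. Regions without one in KO were 2 of 7 at equal list lengths, 3 of 5 with a -log10 p of at least 10 and 3 of 10 in windows of 5 kb, 13 of 17 when 0.5 of a region had to be covered and 16 of 17 when a KO region had to be common to both libraries. Adult IRF8 lay at 9 of the 17, beside 35.9% of all WT regions, and at 2 of the 7, in CR974462.2 and at Dexi, beside 21.7% of all regions without one in KO. With KO replicate 2 left out the 7 regions stayed 7, and with KO replicate 1 left out they were 14. They were 16 of 30 without WT replicate 1 and 25 of 38 without WT replicate 2, where any region of the remaining WT library counts. Near the marker genes, the WT regions with none in KO were 13 of 42 for microglia, 5 of 14 for dendritic cells, 1 of 11 for border macrophages, 1 of 3 for B cells, 2 of 5 for T cells and 1 of 2 for peritoneal macrophages. The KO regions with none in WT were 4 of 12 for border macrophages, 2 of 17 for microglia and none of 4, 1 and 3 for dendritic cells, B cells and peritoneal macrophages. Their part in the result was not tested.

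The 7 regions without H3K27ac in KO included starts of 3 class II genes. Within the lists the 7 stood at percentiles of 32.03 to 87.15 in WT replicate 1 and of 11.7 to 56.67 in WT replicate 2. At the coding start of H2-Ab1 (chr17:34262722-34263674) -log10 p was 12.2 and 7.39 in WT. Near the RefSeq start of H2-DMb2 (chr17:34144630-34145055) it was 9.51 and 5.74, while the WT region over its first annotated start (chr17:34141149-34143435) overlapped one of KO replicate 1 (6.35), and near that of H2-DMb1 (chr17:34153148-34154418) 7.85 and 5.60. The other 4 included a region in CR974462.2 (chr17:34104274-34105759, 17.3 and 8.77), which overlapped the IRF8 element 12.1 kb beyond the start of H2-Oa. Another lay at the start of Dexi beyond Ciita (chr16:10541475-10543312, 9.51 and 8.25). The remaining regions lay 11.0 kb before Cd74 (chr18:60792002-60792839, 11.9 and 5.60) and in Tcof1 (chr18:60830315-60831540, 5.37 and 4.23). The WT regions over the starts of H2-Oa, Cd74 and Brd2 beside H2-DMa each overlapped a region of both KO libraries, but only at H2-Oa did the KO regions overlap each other. The WT region over the start of H2-Ob overlapped one of KO replicate 1 only. A region common to both libraries was near 9 of the 10 genes in WT and 2 in KO, H2-Oa and Ciita (61.7% and 30.1% of all genes). Of the 2 regions common to both KO libraries, 1 had none in WT (10.9% of 10555 in the genome), 14.4 kb before Ciita (chr16:10465087-10465633, -log10 p of 7.42 and 4.80). Without KO replicate 1 there were 2 such regions and without KO replicate 2 there were 11.

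**Figure D5:**
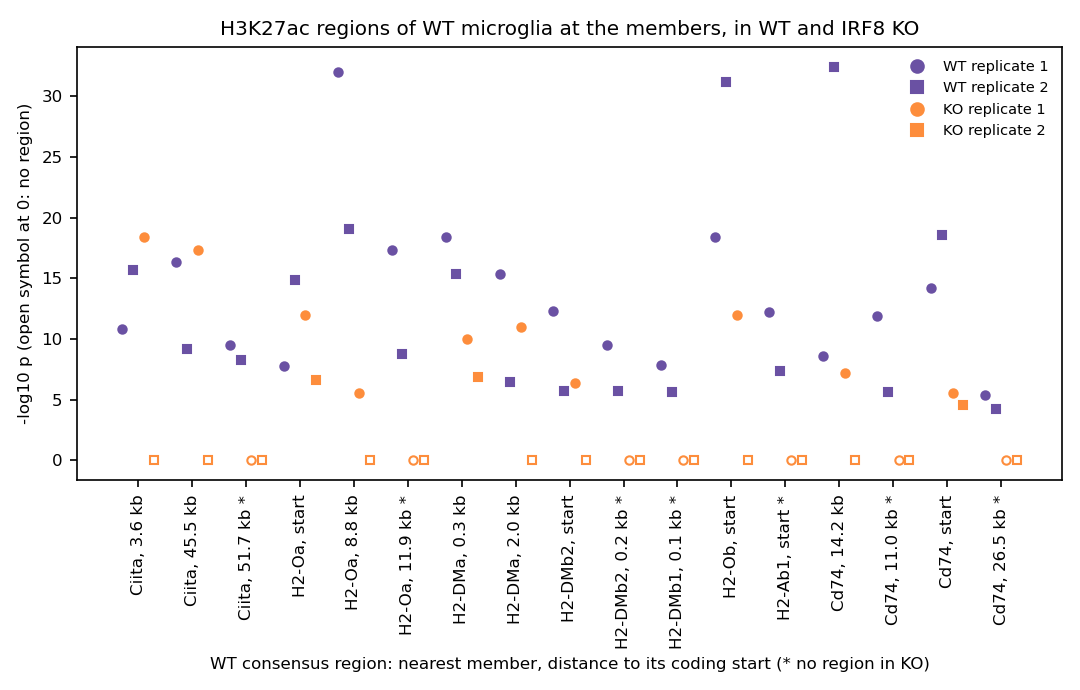
The 17 H3K27ac regions common to both WT libraries (x axis, nearest of the 10 genes and distance to its coding start) with the authors' -log10 p in each WT and KO library (y axis); open symbols at 0 mark a library with no region, and stars the 7 regions absent from both KO libraries. KO replicate 2 has a region at 3 of the 17 and KO replicate 1 at 10.

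H3K4me1, a mark of enhancers and promoter flanks, was found at all 10 genes in both genotypes (79.6% and 82.1% of all genes), with 36 and 37 regions in WT and 41 and 42 in KO. Of 26 regions common to both WT libraries, 2 had none in KO, against 13.0% of 49737. They lay at the later start of H2-DMa (chr17:34135342-34137555, -log10 p of 3.57 and 1.52), where IRF8 was called in 2 adult libraries, and 10.8 kb before Cd74 (chr18:60791456-60793075, 5.90 and 2.21), overlapping a region without H3K27ac in KO. Of 26 common to both KO libraries, 3 had none in WT, against 23.8% of 62025. They lay in Brd2 and CR974462.2 (chr17:34109429-34112571), at the end of H2-DMb1 (chr17:34159901-34162237) and over the start of H2-Eb1 (chr17:34304864-34306825, 4.34 and 1.495 in KO), whose promoter is printed above. With all 4 lists limited to one length, no region was in KO only. With 1 library left out, 4 to 6 regions were without one in KO and 5 to 11 in KO only, over each of the 4 libraries. Near the marker genes, the H3K4me1 regions of KO with none in WT were 4 of 24 for microglia, 1 of 11 for peritoneal macrophages, 4 of 15 for B cells, 3 of 24 for dendritic cells, 4 of 21 for border macrophages and 4 of 11 for T cells. The WT regions with none in KO were 1 of 20, 0 of 7, 1 of 8, 0 of 12, 0 of 15 and 0 of 4 in the same order. What part these have in the H3K4me1 counts was not tested.

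Of 23 genes that act with the class II pathway (subunits of RFX and NF-Y, the interferon gamma receptor with its kinases and IRF factors, proteases and costimulatory molecules), an IRF8 region common to at least 2 libraries of a group lay near 6 at P9, near 18 at P14, near 21 in adult microglia and near 17 in peritoneal macrophages, beside 7.00%, 32.0%, 50.6% and 39.9% of all genes. The 2 without one in adults were Rfxank and Cd40. Cd40, a costimulatory receptor, had 0 regions in all 10 microglial libraries and 3, 2 and 0 in peritoneal macrophages. Cd86, a costimulatory ligand, had 0, 0, 1 and 0 at P9, 3, 6 and 1 at P14, 4, 10 and 5 in adults and 6, 4 and 1 in peritoneal macrophages. Of 41 PU.1 regions common to both WT libraries near these genes, 11 had none in KO (25.1% in the genome), 3 of them at Cd86, which had 6 and 5 PU.1 regions in WT and 2 and 0 in KO. The others lay at Nfya, Creb1, Ifngr1, Ifngr2, Jak1, Lgmn, March1 and Cd83, 1 each. Of 137 H3K27ac regions of WT, 23 had none in KO (34.0% in the genome), and of 116 H3K4me1 regions, 7 (13.0%). In the reverse direction, 2 of 21 PU.1 regions of KO had none in WT (16.5% in the genome), as did 1 of 50 for H3K27ac (10.9%) and 16 of 132 for H3K4me1 (23.8%).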

How the data were processed

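CUT&RUN regions of 25 libraries were analysed: 13 for IRF8 and 12 for PU.1, H3K27ac and H3K4me1 in WT and KO. Per the file headers, the authors called regions per library with MACS2 (2.2.7.1 for IRF8 and PU.1, 2.2.6 for the histone marks) against an IgG control, and the submitters' processing notes name Bowtie2 and mm10. The deposited columns are pileup (coverage signal), -log10 p-value and fold enrichment over control (a ratio), per the file headers, and were not rescaled: values of different libraries are set side by side as the authors' own and were not tested, and percentiles are within a list. The H3K4me1 q-value column was not used. Groups came from titles; IgG libraries were not analysed here.

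Each chromosome, start and end was counted once. Genes were those of GENCODE vM21 extended by 20 kb. Regions of a group were merged where they overlapped by 1 bp, and a merged region in at least 2 libraries counted as consensus; it was called lost or KO-only when neither library of the other genotype had a region. With 2 libraries a group no test was made. The stage trend used the exact Jonckheere-Terpstra permutation test over 4200 assignments (smallest unadjusted p seen, 0.000238), checked on simulated data, with a call at an adjusted p of 0.05. Replicates may be technical, and p-values then measure only the spread between libraries. Named were all 10 genes, each lost or KO-only region, each IRF8 element seen in at least 2 libraries of a group at these genes, and a related list of 23; Cd40 and Cd86 were singled out after their values were seen. The genes and lists were chosen with earlier results of these data known. Alternatives were a -log10 p of at least 10, equal list lengths, windows of 5 kb, other overlap and consensus rules, a replicate block and leaving out libraries. Python 3.11.15, numpy 2.4.6, pysam 0.24.0 and matplotlib 3.10.9 were used. A library's depth limits which regions can be called, so a missing region was not detectable at that depth and is not shown to be absent.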

Additional observations from a re-analysis of the deposited data

Results flagged for a closer look

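Chance alone marks about 1 in 20 groups under the gap criterion for groups of 4, applied here to the 4 P9 libraries, and counts this small are marked by a difference of 1 region. In P9 replicate 2, H2-DMa had 0 IRF8 regions and H2-Oa 0, against 1 in each of the other 3 libraries; both counts are the absence of the same CR974462.2 element. In P9 replicate 4, Cd74 had 1 region against 0 in the others. In P9 replicate 3, Ciita had 1 region, at its first start, against 0 in the others.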

How the results depend on the processing

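Of 111 alternative values of the main counts, 40 stayed within 1.5 times of the reported count and 71 did not. Of 155 for single genes, 96 kept side and direction, 54 lost the call, 2 gained it and 3 turned. When -log10 p had to reach 10, the lost and KO-only regions were 3 of 5 and 0 for H3K27ac and 0 and 1 of 1 for H3K4me1 (both zeros are of 0 regions left, so they show nothing), the adult IRF8 regions 10, of which 2 were shared with peritoneal macrophages and 2 with P14, and the genes with a stage trend 1966. At equal list lengths (the shortest list of each comparison) the lost and KO-only regions were 2 of 7 and 0 of 1 for H3K27ac. For H3K4me1, 0 of 20 regions were then in KO only. Adult regions shared were 3 of 10 with peritoneal macrophages, 4 of 8 with P14 and 2 of 2 with P9. There were 0 genes with a trend (147 at an unadjusted p under 0.05). H2-Eb1, Cd74 and Ciita turned (adjusted exact permutation p of 1, 0.99 and 0.99), each by the call of 1 region in 1 library. In windows of 5 kb the lost and KO-only regions were 3 of 10 and 0 of 1 for H3K27ac, and 1 of 19 was lost for H3K4me1. Adult regions then numbered 11, with 6 shared with P14 and 0 with P9, and 3519 genes had a trend. With 0.5 of a region covered, there were 1 PU.1 region in KO only, 13 H3K27ac regions lost, 6 H3K4me1 regions in KO only, and 6 adult regions shared with P14 and 1 with P9; this rule has no meaning for the adult count itself. Where absence from the other genotype's consensus sufficed, 2 and 1 PU.1 regions were lost and KO-only, 16 H3K27ac regions were lost, and 7 and 9 H3K4me1 regions were lost and KO-only. With a region in every library, 10 adult regions remained by count, 2 shared with peritoneal macrophages, 5 with P14 and 1 with P9. Presence in place of number gave 2009 genes with a trend. Leaving out 1 library gave 2 to 5 PU.1 regions lost and 0 to 3 in KO only, 7 to 25 and 1 to 11 for H3K27ac, and 4 to 6 and 5 to 11 for H3K4me1. It gave 9 to 16 adult regions, 2 to 8 shared with peritoneal macrophages, 4 to 10 with P14 and 2 with P9, and 1600 to 7984 genes with a trend. With 1 library left in a group, consensus means a region in that library. Depth limits which regions can be called in each library.

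With the replicate number as a block (replicate block, 216 assignments, smallest p 0.00926), 0 genes were called by the exact permutation test, 5623 having an unadjusted p under 0.05. Same-numbered libraries correlated at -0.048 to 0.221 over 9 pairs, and 5 of 18 best matches were with the own number. Counts were centred on the mean of each stage, which sets its libraries against each other. These values therefore cannot decide whether same-numbered libraries are pairs, and the labels do not state a pairing.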
